A study of Mus musculus with 4 samples.

Results

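Some miRNAs are known as marks of a tissue, and these were followed in sorted retinal cells, which belong to none of the tissues in question. The members were all mouse miRNA probes of a nanoString nCounter panel whose miR number stands for muscle, liver and gut, endocrine and exocrine pancreas, red cells, pluripotent cells, endothelium, mural and mesenchymal cells, or surface epithelia. Matching by number, with any letter or arm, found 45 mouse miRNA probes, beside 521 others on the panel. They were 7 muscle, 3 liver and gut, 4 pancreatic, 2 red cell, 15 pluripotent, 2 endothelial, 5 mural and 7 epithelial probes. No probe named miR-215 was among those analysed.

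There were 4 libraries of mouse retinal cells, 1 per group. P2 RPC were retinal progenitor cells of postnatal day 2 from Sox2-Cre:tdTomato mice, pooled from 8 retinas. P8 MG, P11 MG (titled P11/12) and adult MG were Müller glia, the radial support cells of the retina, from Rlbp-Cre:tdTomato mice, pooled from 52, 32 and 40 retinas. All carried a tamoxifen-activated Cre and a floxed-stop tdTomato reporter, and all mice received tamoxifen at 75 mg/kg on consecutive days, from day 0, 6 and 9 for the dated groups and after the third postnatal week for the adults. tdTomato-positive cells were sorted by flow cytometry. Sox2 is also active in some amacrine cells and Rlbp in the retinal pigment epithelium, so the driver does not by itself limit a pool to the named cell. The design note calls the progenitors adult, whereas the sample labels, followed here, give day 2. Each group was 1 pooled RNA in 1 lane, which leaves every difference between groups without replication, and Cre line, cell type, age and lane cannot be told apart between P2 RPC and the glia. Among the glia, age and lane cannot be told apart. Values given at P2, at P8, at P11 and in adults are those of P2 RPC and of the Müller glia of each age.

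A miRNA represses many transcripts at once, mostly through matches to its seed, and tissue-restricted miRNAs are known for holding down transcripts that do not belong to their tissue. The muscle set (miR-1, miR-133, miR-206, miR-208 and miR-499) is made in heart and skeletal muscle, miR-122 is the dominant miRNA of hepatocytes, and miR-192 and miR-194 are shared by gut, liver and kidney. miR-375 is an islet miRNA and miR-216 and miR-217 belong to the exocrine pancreas, while miR-144 and miR-451 accumulate in erythroid cells. miR-290 to miR-295 and miR-302 mark embryonic stem cells and the early epiblast. miR-126 is carried by the endothelial gene Egfl7, miR-143 and miR-145 are made by smooth muscle, and miR-199a and miR-214 by mesenchymal cells. The miR-200 family, with miR-141 and miR-429, keeps cells epithelial by repressing the Zeb factors, and miR-203 and miR-205 belong to stratified epithelium.

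The sequences of the miRNAs that the results turn on are given from RefSeq, build GRCm38.p6, 5′ to 3′, with the seed (bases 2 to 8) in capitals. The first set holds the leading endothelial, pancreatic and muscle miRNA, each of the last 2 with a relative of the same number.
miR-126-3p: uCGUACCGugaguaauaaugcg
miR-216b: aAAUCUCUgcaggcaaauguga
miR-216a: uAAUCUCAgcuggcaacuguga
miR-208a: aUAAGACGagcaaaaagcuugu
miR-208b: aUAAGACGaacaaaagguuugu

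The miR-200 family is shown because 2 seeds divide it and detection differed among miRNAs of 1 seed, and miR-203 because it stood highest over its threshold among the epithelial probes.
miR-200b: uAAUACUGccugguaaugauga
miR-200c: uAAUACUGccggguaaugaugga
miR-429: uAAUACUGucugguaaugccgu
miR-200a: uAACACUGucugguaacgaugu
miR-141: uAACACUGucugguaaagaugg
miR-203: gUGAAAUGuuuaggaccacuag

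A mature sequence was found for 36 of the 45 members. miR-126-3p lies at chr2:26591402-26591423 on the plus strand, within Egfl7. miR-216b lies at chr11:28746204-28746225 on the plus strand, with no other annotated gene over it. miR-208a lies at chr14:54949072-54949093 on the minus strand, within the cardiac myosin gene Myh6.

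The lanes held 482118 miRNA counts at P2, 470304 at P8, 484305 at P11 and 695390 in adults. A probe was taken as above background when its raw count passed a threshold set 2 SD over the average of its lane's 8 negative controls, that is 60.7 counts at P2, 137 at P8, 106 at P11 and 71.7 in adults. These thresholds correspond to 0.0126%, 0.0292%, 0.0218% and 0.0103% of miRNA counts in the same order. The bar for detection was thus 2.26 times higher in P8 MG than in P2 RPC. Among miRNAs of retinal cells, miR-204 (25967 to 247414 raw counts) and the neural miR-9 (63981 to 100674) stood far above these thresholds in all 4 libraries. Alone, miR-204 held 247414 of the 695390 miRNA counts in adults and 25967 of 482118 at P2. Every share of miRNA counts given here is taken of a total that includes it. So did miR-25 (2080 to 20511) and miR-124, a miRNA of neurons, which had 7015 counts at P2, 3117 at P8, 1220 at P11 and 1211 in adults.

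Most of the lineage miRNAs were not detected. Above background stood 13 of 45 at P2 (28.9%), 2 at P8 (4.44%), 2 at P11 (4.44%) and 6 in adults (13.3%). Over all mouse miRNA probes the share was 38.9% at P2, 23.7% at P8, 26.3% at P11 and 30.2% in adults, so the lineage set lay under the background share in each library. Of 33 viral miRNA probes, which have no target in these mice unless they are infected, 4 passed in P2 RPC (12.1%), none in P8 or P11 MG and 2 in adult MG (6.06%). One ligation negative control of 3 also passed in P2 RPC, at 65 counts. Passing the threshold by a small margin in P2 RPC is therefore also what some control probes did.

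**Figure D1:**
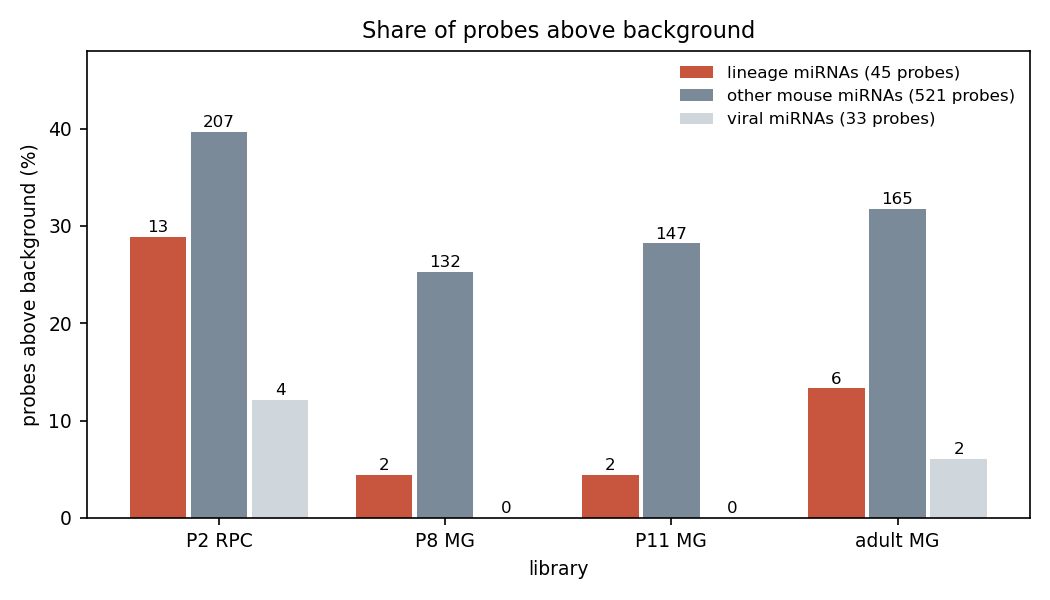
Share of probes above the lane's background (y axis, percent) in each library (x axis) for the 45 lineage miRNAs, the 521 other mouse miRNAs and the 33 viral miRNA probes, with the number of probes above each bar. The lineage bar is below that of the other mouse miRNAs in all 4 libraries, and it is highest in P2 RPC, where 13 members and 4 viral probes passed.

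The margins were narrow. Of the 13 members above background in P2 RPC, 9 were within 1.5 times the threshold, and only miR-126-3p and miR-216b reached 2 times it. In P8 MG and in P11 MG the pair above background was miR-126-3p and miR-200b, and in adult MG it was joined by miR-192, miR-194, miR-203 and miR-208a. With the exact Poisson 95% interval of each count, which covers counting error only, 10 of the 13 in P2 RPC kept their lower limit above the threshold, as did 5 of 6 in adult MG and only miR-126-3p in P8 MG and P11 MG. Of the same 13 members, 12 had more raw counts in P8 MG than in P2 RPC, the exception being miR-216b. In P11 MG 6 of the 13 had more raw counts than in P2 RPC, and in adult MG 3 did. Most of the 13 thus did not have more raw counts in P11 or adult MG. Raw counts hold the lane's background, and the mean of the negative controls was 35.8 at P2 and 70.5 at P8. With that mean subtracted and the lanes scaled as described below, some of the 13 were lower in P8 MG and some higher. miR-194 then had 53.0 at P2 and 27.9 at P8, and miR-200b had 45.9 and 77.4. With 1 threshold for all lanes, the highest of the 4, P2 RPC had 2 members above it. In every library 26 or 27 of the 45 members lay under the mean of the negative controls.

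**Figure D2:**
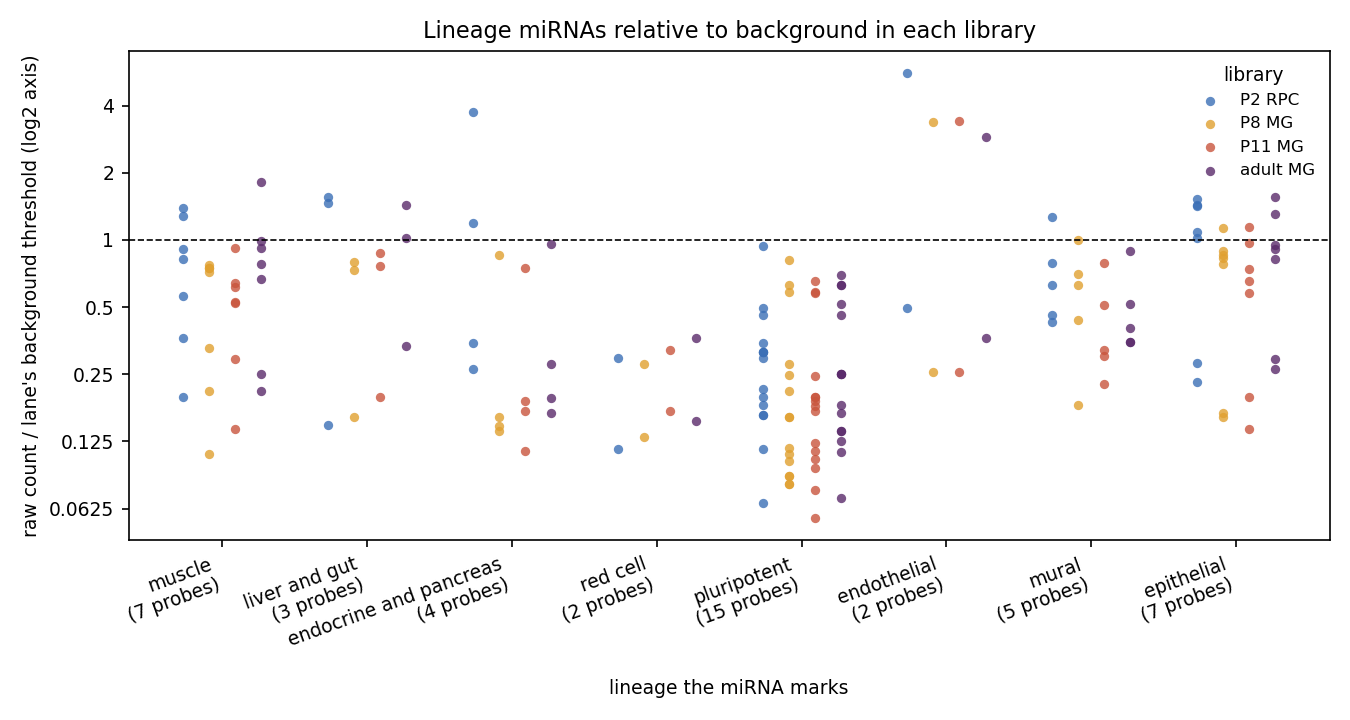
Raw count divided by the lane's background threshold (y axis, log2 scale, dashed line at 1) for each lineage miRNA, by lineage (x axis) and library (colour). Each point is 1 probe; only miR-126-3p in all 4 libraries and miR-216b in P2 RPC lie above 2, and all red cell and pluripotent probes lie below 1.

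The endothelial miR-126-3p stood furthest above background in every library. Its raw counts were 340 at P2 (305 to 378), 462 at P8 (421 to 506) and 360 at P11 (324 to 399), with exact Poisson 95% intervals in brackets, and the interval in adults was 181 to 238. The counts lay 24.4, 11.7, 11.2 and 10.3 SD above the mean of the lane's negative controls, in the same order. It was highest in P8 MG and lowest in adult MG, and the count intervals of P2 RPC and P11 MG overlapped. As a share of miRNA counts it made up 0.0705% at P2, 0.0982% at P8, 0.0743% at P11 and 0.0299% in adults, and it ranked 70, 62, 64 and 81 among the mouse miRNA probes. The other arm of the same hairpin, miR-126-5p, had only 26 to 35 counts and was under background throughout. In bulk RNA of this kind, fewer cells of a type and less RNA per cell cannot be told apart.

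After the lanes had been scaled on their positive controls and then on the 100 most abundant miRNA probes, miR-126-3p had 304 normalized counts at P2, 423 at P8, 386 at P11 and 236 in adults, a range of 1.79-fold. The exact conditional binomial 95% interval of each ratio covers counting error only. The ratio of adult MG to P11 MG was 0.612 (0.514 to 0.728), that of adult MG to P2 RPC 0.777 (0.651 to 0.926), that of P8 MG to P2 RPC 1.39 (1.21 to 1.60) and that of P11 MG to P8 MG 0.913 (0.793 to 1.05). None reached 2-fold. Over 8 lane scalings the log2 ratio of adult MG to P11 MG stayed below 0, from -1.31 to -0.22, whereas that of P8 MG to P2 RPC ran from -0.55 to 0.70 and that of adult MG to P2 RPC from -1.24 to 0.08, so these directions depended on the scaling.

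Among the other 115 mouse miRNAs above background in all 4 libraries, those with the most similar course were miR-101b, miR-21 and miR-433. The root mean square difference of their centred log2 normalized counts from those of miR-126-3p, over the 4 libraries, was 0.056, 0.10 and 0.14. miR-101b had 167 raw counts at P2, 210 at P8, 159 at P11 and 96 in adults. With 4 points per course, likeness of this kind is a description. A wider look at endothelium gave no second detected marker, as miR-221 (25 to 69 counts) and miR-222 (16 to 28 counts), abundant in cultured endothelial cells, were under background in all 4 libraries.

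The pancreatic miR-216b was above background in P2 RPC only. It had 228 counts at P2 (199.4 to 259.6), 19 at P8 (11.4 to 29.7), 18 at P11 (10.7 to 28.4) and 12 in adults (6.20 to 21.0). The P2 RPC count was 3.76 times the lane's threshold and 15.4 SD above its negative controls, and the 3 glial counts lay under the mean of theirs. By count it ranked 90 at P2, 502 at P8, 461 at P11 and 503 in adults. Because the glial counts were at background, ratios are bounds: it was at least 2.50-fold lower in adult MG than in P2 RPC, and at least 1.62-fold lower in P8 MG, where the higher threshold makes the bound looser. The adult call held under 7 of 8 lane scalings and was lost on the ligation controls, where the log2 bound was -0.89. It was also lost with 1 threshold for all lanes, at a log2 bound of -0.39.

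Its relatives had other courses. miR-216a, which matches miR-216b at 18 of 22 bases, had 69 to 118 counts and stood above background in P2 RPC alone, by 1.19 times. The 4 differing bases, counted from 1 at the 5′ end with the base of miR-216b first, are A1U, U8A, A11U and A17C, and U8A lies in the seed. miR-217, encoded within 10 kb of miR-216a, had 12 to 21 counts and was never detected, and the islet miRNA miR-375 had 14 to 22. miR-7a, an endocrine miRNA outside the set, had 57 to 120 counts and was above background in P2 RPC only.

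**Figure D3:**
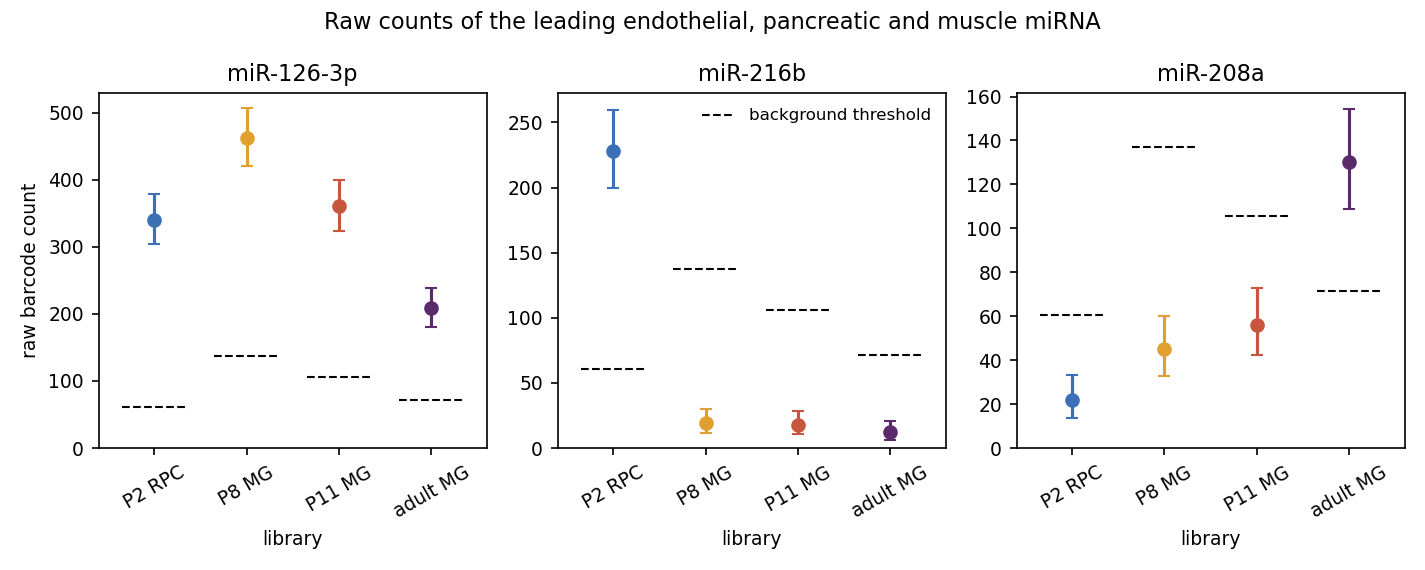
Raw barcode counts (y axis, linear from 0, own scale per panel) of miR-126-3p, miR-216b and miR-208a in the 4 libraries (x axis), with exact Poisson 95% intervals as bars and the lane's background threshold as a dashed line. miR-126-3p is above the line in all 4, miR-216b only in P2 RPC (228 counts) and miR-208a only in adult MG (130 counts).

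Among the muscle miRNAs, miR-208a, a cardiac member, was above background only in adult MG. Its counts were 22 at P2, 45 at P8, 56 at P11 and 130 in adults (109 to 154), which is 1.81 times the adult threshold. It was at least 2.72-fold higher in adult MG than in P2 RPC, with a counting interval of 1.98 to 3.73 that reaches under 2-fold. Against P11 MG its log2 bound was 0.38. The bound against P2 RPC passed 2-fold under 7 of 8 scalings and missed it on total miRNA counts, with a log2 bound of 0.57. It also missed it with 1 threshold for all lanes, at a log2 bound of 0.35. The raw counts of miR-204, an abundant miRNA in all 4 libraries, came in the same order of libraries (25967, 55841, 99116 and 247414). Its part in the miR-208a signal was not tested. miR-208b shares the seed and 19 of 22 bases with miR-208a (differing by G10A, A16G and C18U, the base of miR-208a first) and had 12 to 15 counts.

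The rest of the muscle set gave little. miR-1, the main miRNA of striated muscle, had 84 counts at P2, 106 at P8, 97 at P11 and 71 in adults, and miR-206, of skeletal muscle, had 55 to 99. Both were above background only in P2 RPC, by 1.38 and 1.29 times. Their genomic partners miR-133a (50 to 103 counts) and miR-133b (48 to 103 counts) were not above background anywhere, and neither was miR-499 (18 to 34 counts), which lies within a myosin gene. Outside the set, miR-486, found in muscle and red cells, had 25 to 40 counts and was also under background in all libraries.

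Of the 7 epithelial probes, 5 were above background at P2, 1 at P8, 1 at P11 and 2 in adults. The share over all mouse miRNA probes was 38.9%, 23.7%, 26.3% and 30.2% in the same order, and 4 of 33 viral probes also passed at P2. miR-200b had 87 counts at P2, 155 at P8, 121 at P11 and 94 in adults, and apart from miR-126-3p it was the only member above background in all 4 libraries, by 1.43, 1.13, 1.14 and 1.31 times. The lower limit of its count interval fell under the threshold in P8 MG (132 counts) and P11 MG (100 counts). miR-203 had 86 counts at P2, 102 at P11 and 112 in adults, and its raw count was highest at P8, with an interval of 101 to 146. It passed in P2 RPC and adult MG by 1.42 and 1.56 times and was at 0.889 of the threshold at P8 and 0.964 at P11. miR-205 (68 to 107 counts), miR-200a (59 to 117 counts) and miR-200c (61 to 114 counts) passed in P2 RPC only, by 1.53, 1.02 and 1.09 times. The count intervals of miR-200a and miR-200c in P2 RPC reached under the threshold. The ratio of adult MG to P2 RPC was 1.65 (1.24 to 2.22) for miR-203 and 1.37 (1.01 to 1.86) for miR-200b, both short of 2-fold.

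Sharing a seed, or lying close in the genome, did not always go with shared detection in this set. miR-429 has the seed of miR-200b and lies within 10 kb of it, but had 14 to 22 counts, and miR-141, with the seed of miR-200a and 20 of its 22 bases, had 17 to 23. Neither was above background in any library. Of the epithelial miRNAs outside the set, miR-31 had 57 to 101 counts and passed in P2 RPC only, and miR-184, abundant in lens and cornea, had 62 counts at P2, 112 at P8, 129 at P11 and 112 in adults and missed the threshold only in P8 MG.

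Of the liver and gut miRNAs, miR-194 and miR-192 were weakly detected and miR-122 was not. miR-194 had 95 counts at P2, 101 at P8, 92 at P11 and 103 in adults, and passed the threshold in P2 RPC and adult MG only. These raw counts were nearly level but hold the lane's background. With the mean of the negative controls subtracted and the lanes scaled, they were 53.0 at P2, 27.9 at P8, 44.7 at P11 and 73.2 in adults. miR-192 had 73 to 109 counts and passed in the same libraries, in adult MG by 1.02 times. miR-122, the hepatocyte miRNA, had 9 to 24 counts and was never above 0.335 of a lane's threshold. Of the liver miRNAs outside the set, miR-802 (20 to 33 counts) was under background in all libraries, whereas miR-148a, which many tissues express, had 822 counts at P2, 1469 at P8, 1395 at P11 and 1891 in adults.

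The mural and mesenchymal miRNAs were at background in the glia. miR-199a-3p had 77 counts at P2, 137 at P8, 54 at P11 and 29 in adults. It passed in P2 RPC by 1.27 times and lay just under the threshold in P8 MG, whose own value rounds to the same 137. In P11 and adult MG it was well below. The same sequence is also made from the miR-199b hairpin, so the probe cannot separate them. miR-199a-5p (25 to 97 counts), miR-214 (28 to 60 counts), miR-145 (48 to 86 counts) and miR-143 (24 to 26 counts) were under background everywhere. The trunk and mesenchymal miRNAs outside the set, miR-10a, miR-10b, miR-196a and miR-196b, were also under background in all 4 libraries, with miR-10a nearest at 66 counts, or 0.921 of the threshold, in adult MG.

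No red cell or pluripotency miRNA was detected in any library. miR-451, by far the most abundant miRNA of erythrocytes, had 18 counts at P2, 38 at P8, 34 at P11 and 26 in adults, and miR-144, from the same transcript, had 7 to 18. At most they reached 0.363 of a lane's threshold. The 15 pluripotency probes had between 4 and 111 counts, and the nearest to its threshold was miR-290-3p in P2 RPC, with 57 counts or 0.939 of it. The miR-302 members had 4 to 45 counts, the highest being miR-302a in adult MG. miR-367, which is made with miR-302 but lies outside the set, had 50 to 109 counts and was likewise never above background. These absences hold down to the lane thresholds given above.

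Some of the white blood cell miRNAs listed beside the set were detected, whereas no red cell miRNA was. miR-142-5p had 157 counts at P2, 315 at P8, 259 at P11 and 226 in adults and passed in all 4. miR-142-3p had 42 to 262 counts and miR-150 had 50 to 173, both lowest at P2, and both passed in the 3 glial libraries only. From P8 MG to adult MG, miR-142-3p passed by 1.91, 1.94 and 1.02 times and miR-150 by 1.26, 1.13 and 2.02 times. miR-223, of myeloid cells, had 22 to 66 counts and was under background throughout. miR-155 stood at 1 count in every library, under the lowest viral probe of each lane (5 to 12 counts). Whether its probe worked cannot be told from these counts. Of the 18 companion probes 5 were above background at P2, 4 at P8, 5 at P11 and 5 in adults. Over all mouse miRNA probes the share above background was 38.9%, 23.7%, 26.3% and 30.2% in the same order.

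Summed over the members above background, the lineage miRNAs made up 0.302% of miRNA counts at P2 (0.287% to 0.318%), 0.131% at P8 (0.121% to 0.142%), 0.0993% at P11 (0.0906% to 0.109%) and 0.104% in adults (0.0961% to 0.111%), with exact binomial 95% intervals. Without miR-126-3p the shares were 0.232%, 0.0330%, 0.0250% and 0.0736%. In P2 RPC the epithelial members held 0.0817%, the endothelial 0.0705%, the pancreatic 0.0622%, the liver and gut 0.0382%, the muscle 0.0336% and the mural 0.0160%. In P8 MG the endothelial members held 0.0982% and the epithelial 0.0330%, and in P11 MG 0.0743% and 0.0250%. The endothelial members of adult MG held 0.0299%, the epithelial 0.0296%, the liver and gut 0.0253% and the muscle 0.0187%. These sums hold raw counts, with the lane's background in them, and count only members over a threshold that differed between lanes. They are also taken of totals in which miR-204 held 247414 counts in adults, 99116 at P11 and 25967 at P2, which lowers the adult shares most. Over all 45 members with the mean of the negative controls subtracted, the share was 0.228% at P2, 0.244% at P8, 0.164% at P11 and 0.108% in adults. In this sum the 26 or 27 members of each lane under that mean added nothing, while scatter above it was kept. The negative controls had an SD of 12.5 at P2, 33.4 at P8, 27.7 at P11 and 16.5 in adults. On this measure the order of P2 RPC and P8 MG turned. So did that of P11 MG and adult MG, whose intervals above overlapped. A sum that keeps values under the mean was not computed, so what the turn owes to that step was not tested.

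Between libraries few members differed. A member was called when its count in the higher library passed the background, it differed by at least 2-fold and had an interval excluding equality. In adult MG against P2 RPC, 1 member was called higher (miR-208a, 8.83% of all mouse miRNA probes being called higher) and 1 lower (miR-216b, against 7.07% of all probes), while 31 of 45 were at background in both. The 5 members above background in both libraries had a median log2 ratio of 0.46, beside 0.18 over the 149 mouse miRNA probes measured in both. No member was called in P8 MG against P2 RPC, where 5.12% of all probes were called higher and 3.71% lower. None was called in P11 MG against P8 MG, against 0.707% and 1.77% of all probes. None was called in adult MG against P11 MG, against 4.06% and 3.89%. Only miR-126-3p and miR-200b were above background in both libraries of the last 3 comparisons, so the other members had at most 1 measured value to compare.

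**Figure D4:**
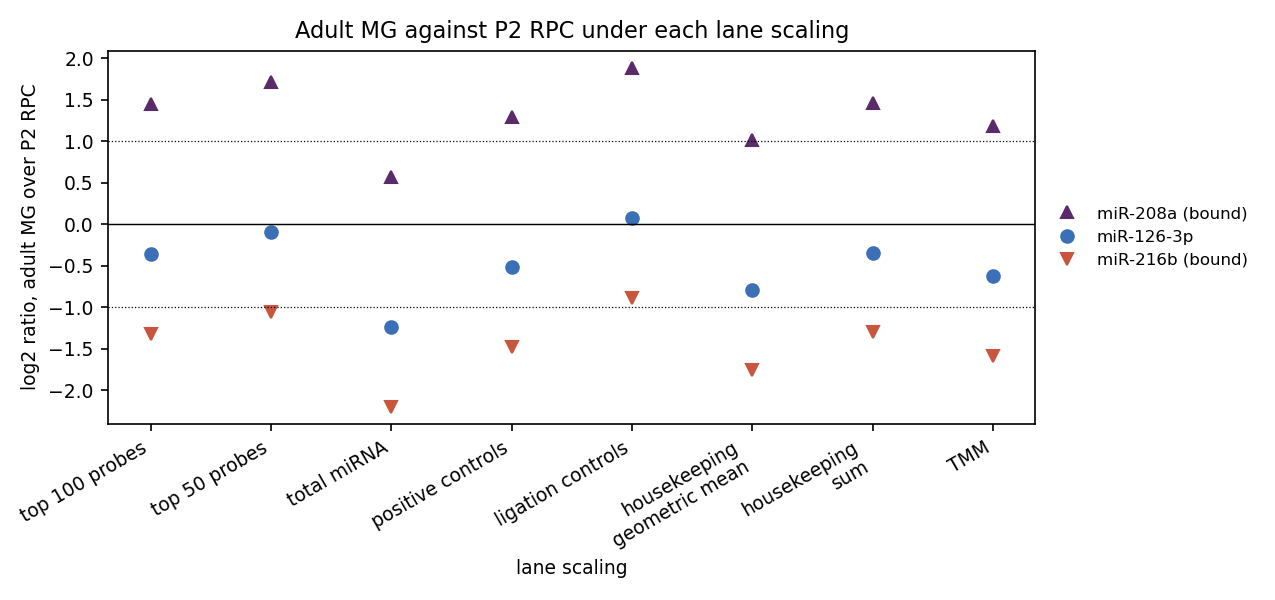
Log2 ratio of adult MG over P2 RPC (y axis) for miR-208a, miR-126-3p and miR-216b under 8 ways of scaling the lanes (x axis), with dotted lines at 2-fold; triangles are bounds, set against a threshold. miR-208a falls under 2-fold on total miRNA counts, miR-216b on ligation controls, and miR-126-3p passes it only on total miRNA counts, at -1.24.

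The member genes formed 12 groups lying within 10 kb of each other. All probes of the group passed in at least 1 library in 1 case (miR-192 with miR-194), some passed in 7 and none in 4, namely the miR-290 to miR-295 cluster, the miR-302 cluster, miR-144 with miR-451, and miR-143 with miR-145. With 31 of 45 members never above background, these counts are a description. miR-200a and miR-200b, which are neighbours, both passed in P2 RPC, while miR-429 beside them did not. Of 6 groups of members with a common seed, 3 had no detected member, and the largest, the 5 pluripotency miRNAs with the seed AAGUGCU, was among them.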

How the data were processed

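The authors deposited raw whole-number barcode counts per probe, with 1 lane per group, and a table of processed values, treated as a score, since its making is not given in the sources used here. Per the labels' protocols, tags were ligated to mature miRNAs through sequence-specific bridges before counting. Which software made them is not stated there. Lanes were scaled as described, and background was set per lane. A count at or below the threshold was set to it, and the ratio given as a bound. Calls were computed over all mouse miRNA probes. Simulated lanes of equal background, with counting noise alone, were used to check the call rule on probes well above the threshold. That check does not cover lanes of unequal background, bounds or members near the threshold. A single library per group allows no test of group differences.

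The members and lists were chosen with earlier results of these data known. The naming rule took members at 2 times background with all counts, other detected members by range, and otherwise the strongest of a lineage, with likeness and companions as given. Further values for miR-1, miR-192, miR-194, miR-199a-3p, miR-200b, miR-203, miR-208a and miR-451, and members named beside a relative, were chosen after their values were seen. Probe names without an arm were given the arm that miRBase lists for the accession, from background knowledge. RefSeq gene neighbours came from GRCm38.p6. Alternatives were 7 other scalings, other background rules, other fold thresholds and the authors' scores. The highest viral probe as background, and 1 threshold for all lanes, were added after seeing the data. Python 3.11.15, SciPy 1.17.1 and edgeR 4.0.16 (TMM factors only) were used.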

Additional observations from a re-analysis of the deposited data

How the results depend on the processing

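With 1 library per group, Cre line, cell type, age and lane cannot be separated between P2 RPC and the glia. Among the glia, age cannot be separated from lane. The lane's background limits every member near its threshold. No paired analysis was possible because each group has 1 library. Numbers above background changed with the threshold. At mean + 1 SD they were 16 at P2, 11 at P8, 8 at P11 and 14 in adults. The gap between P2 RPC and P8 MG, 13 against 2 at the main threshold, was thus narrower. At mean + 3 SD, or above 1 in the authors' deposited table, they were 10, 1, 1 and 5 from P2 RPC to adult MG. At the highest negative control they were 15, 6, 3 and 12 in the same order. At the 95th percentile of viral probes they were 12, 3, 4 and 6, and at the highest viral probe 12, 3, 3 and 5. At 1.5 times the threshold they were 4 at P2, 1 at P8, 1 at P11 and 3 in adults. With 1 threshold for all lanes they were 2 at P2, 2 at P8, 1 at P11 and 1 in adults. Under each of these rules the members' share above background stayed below that of all mouse miRNA probes in every library. With the negative-control mean subtracted, members under it added nothing to the sum. The summed share over all members then became 0.228% in P2 RPC, 0.244% in P8 MG and 0.164% in P11 MG. At mean + 3 SD it was 0.261%, 0.0982%, 0.0743% and 0.0930% from P2 RPC to adult MG, and it was 0.115%, 0.0693%, 0.0508% and 0.0310% in the authors' deposited table. In P8 MG against P2 RPC, 1 member was called on the top 50 probes or ligation controls (miR-200b, higher), 1 on either housekeeping scaling, TMM factors or subtracted counts (miR-216b, lower), 2 at 1.5-fold and 9 in the authors' deposited table, all lower. In adult MG against P11 MG, 1 was called on total counts or at 1.5-fold (miR-126-3p, lower) and 4 in the authors' deposited table. In adult MG against P2 RPC, 0 were called at 3-fold or with 1 threshold for all lanes, and 8 in the authors' deposited table, where a floor of 1 enlarges ratios. The cause of the other shifts was not tested. Shares of all probes called were not computed for these alternatives. Directions were not stable for every member: miR-200b in P8 MG against P2 RPC was called higher at 1.5-fold and on the scalings above but lower in the authors' deposited table, and miR-126-3p in adult MG against P2 RPC was called lower on total counts (log2 -1.24) but was at 0.08 on ligation controls.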
